A study of Mus musculus with 15 samples.

Results

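The genes described here are 10 members of the Notch pathway: the receptors Notch1, Notch2 and Notch4, the ligands Jag1, Jag2 and Dll1, the modifying enzyme Lfng, and the target genes Hes1, Heyl and Nrarp. They were chosen by symbol from a table of raw read counts of 33340 genes, and all 10 were abundant enough to be tested. To follow bleomycin injury, polyadenylated RNA from whole lungs of male C57BL/6 mice, aged 10 to 12 weeks in the study's methods, was sequenced. Bleomycin, which breaks DNA and leaves lung fibrosis, was given once into the trachea at 5 U/kg. Days 0, 7 and 14 had 4 libraries each and day 21 had 3, with no genetic alteration in any group. The day 0 libraries were titled as controls, but the treatment label of day 0 replicate 4 names bleomycin, and each comparison with day 0 was also made without it.

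Notch signaling passes from cell to cell. A ligand of the Jagged or Delta-like family on one cell binds a Notch receptor on its neighbor, the receptor is cleaved, and its intracellular part moves to the nucleus, where it joins the DNA-binding protein RBPJ and switches on genes of the Hes and Hey families. In the lung the pathway is known for setting the balance of secretory and ciliated cells in the airway, and for the growth and arterial identity of vessels and the upkeep of the smooth muscle cells and pericytes around them.

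The site that RBPJ binds has the core TGGGAA. The 250 bases before each RefSeq gene start (GRCm38.p6) were searched for it on both strands, as a description of the promoters of genes that the pathway can regulate. Of the 10 members, 8 had an entry, and 1 of the 8, Lfng, held the motif. Hes1 and Heyl had no entry and were not searched, so that Nrarp was the only target gene among the 8. Of 32851 mouse promoters searched in the same way, 21.6% held it. Lfng, which held 1 match on each strand, is shown beside Notch4, a receptor with a lower level at day 7, which held none. Both stretches are on the plus strand, from chr5:140607091-140607319 and chr17:34564045-34564267, and end at the base before the annotated gene. Capitals mark the motif or its reverse complement.
Lfng: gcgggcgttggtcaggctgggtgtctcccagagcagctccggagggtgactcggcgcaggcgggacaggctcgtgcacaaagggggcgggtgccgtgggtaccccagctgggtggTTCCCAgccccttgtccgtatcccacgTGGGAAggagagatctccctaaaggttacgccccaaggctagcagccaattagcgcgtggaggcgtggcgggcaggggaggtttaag
Notch4: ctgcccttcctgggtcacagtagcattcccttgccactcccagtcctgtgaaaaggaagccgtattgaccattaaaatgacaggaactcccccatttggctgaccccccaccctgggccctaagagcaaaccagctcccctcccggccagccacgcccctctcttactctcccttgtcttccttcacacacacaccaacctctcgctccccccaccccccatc

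Levels are given in CPM, the counts of a gene scaled to a common library size after edgeR's adjustment of the library totals. A difference passed when its Benjamini-Hochberg adjusted p over the 17457 genes tested was under 0.05 in edgeR's quasi-likelihood test and its fold change was over 1.5. Few of the 10 members passed. At day 7, Notch4 was lower than at day 0 and no member was higher. At days 14 and 21, Heyl was higher than at day 0 and no member was lower. The share of members was 1 of 10 in each comparison, beside 16.1% of all genes at day 7, 23.1% at day 14 and 22.5% at day 21. At an unadjusted p under 0.05 the members numbered 3, 2 and 3, beside 38.2%, 43.3% and 40.5% of all genes. The median log2 fold change of the members was -0.22, -0.23 and -0.08 at days 7, 14 and 21, beside medians of 0.01, 0.02 and 0.02 over all genes. These 3 comparisons share the day 0 libraries.

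**Figure D1:**
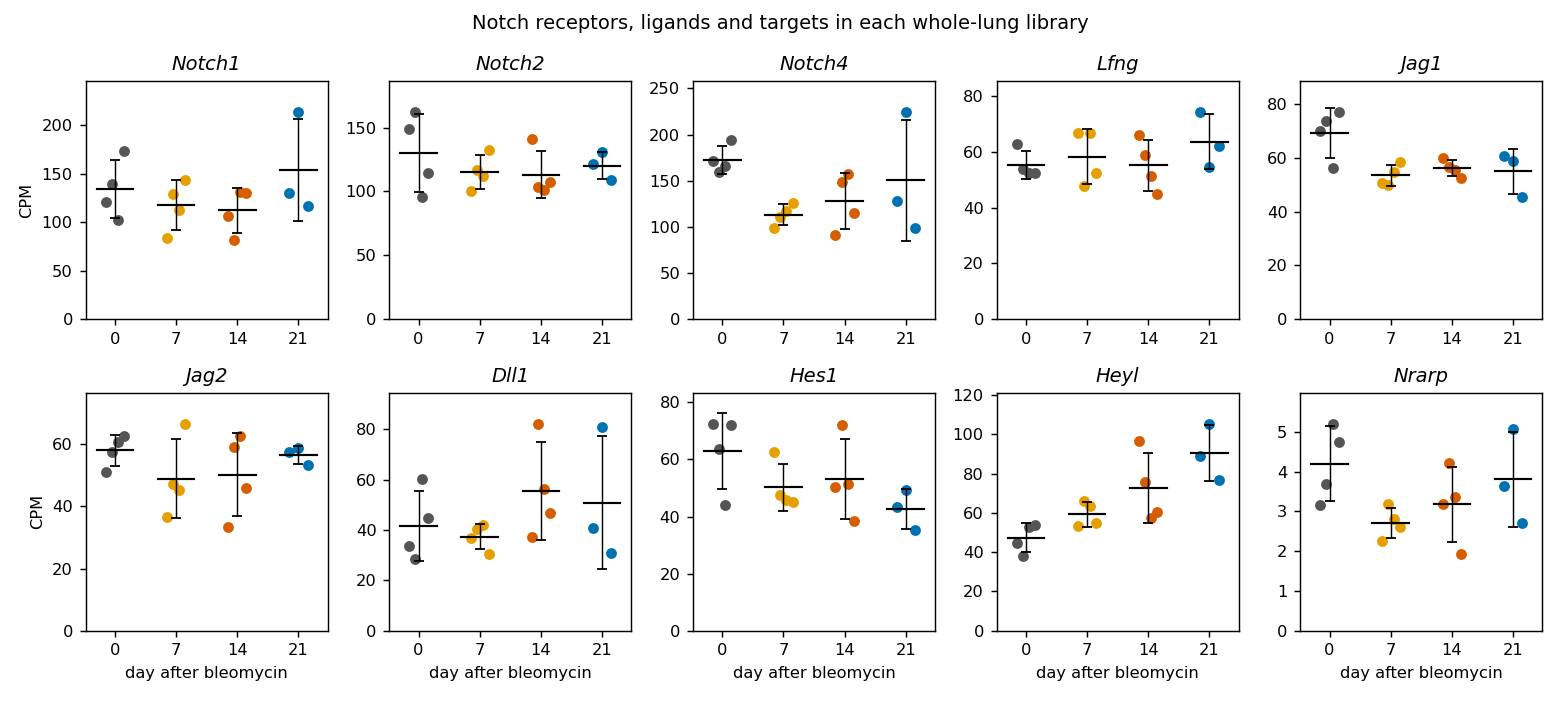
CPM of the 10 members (vertical axes, linear from 0) in each of the 15 libraries (points) at day 0 and at days 7, 14 and 21 after bleomycin, with lines at the group mean and bars of 1 SD. All day 14 and day 21 points of Heyl lie above its day 0 points, and all day 7 and day 14 points of Notch4 lie below its day 0 points.

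The libraries held 15652008 to 18020661 counts, and between 22100 and 23970 genes were detected in each. Within a day, the share of counts from 16 mitochondrial genes varied. It was 2.28% and 2.31% in day 0 replicates 1 and 2 and 4.22% and 4.05% in replicates 3 and 4. It was 2.03% to 2.15% at day 7, 2.102% to 4.14% at day 14 and 2.66% to 4.01% at day 21. Of the markers fixed for the labelled tissue, 8 lung epithelium genes summed to 27740 to 38000 CPM at day 0 and to 5580 to 12080 CPM at day 21, with 5 lower and 1 higher at day 21. Over the 15 libraries, the summed level of 7 cardiac markers ranged from 18.8 to 757.9 CPM and that of 5 adipose markers from 0.741 to 137 CPM. Against day 0, the fibroblast markers that passed of 8 were 2 higher at day 7, 1 higher and 3 lower at day 14, and 1 higher and 4 lower at day 21, while their median summed level went from 2066 CPM at day 0 to 3761 CPM at day 21. At days 7, 14 and 21, the markers lower were 0, 8 and 4 of 8 for multiciliated cells, 2, 4 and 2 of 5 for secretory cells and 0, 5 and 6 of 6 for B cells, and those higher were 2, 5 and 3 of 6 for macrophages. The median summed level of the macrophage markers was 7234 CPM at day 0 and 6223, 8317 and 4629 CPM at days 7, 14 and 21. Among all genes, 16.1%, 23.1% and 22.5% passed in either direction at days 7, 14 and 21. The part of these cell types in the levels of the members was not tested.

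Of the receptors, Notch4 had the highest level. At day 0 the mean level per kilobase of exon was 21.4 CPM for Notch4, 12.1 CPM for Notch2, 10.1 CPM for Notch3, the receptor outside the 10 members, and 9.39 CPM for Notch1. Of the summed level per kilobase of the 4 receptors, Notch4 held 40.5% ± 3.73 (SD, n = 4) at day 0 and 32.2% ± 1.10 (SD, n = 4) at day 7, and the ranges, 36.3% to 44.7% and 31.1% to 33.6%, did not overlap. At days 14 and 21 its share ranged from 28.5% to 47.1% and from 28.1% to 42.1%, and both ranges overlapped with that of day 0. The summed level of the receptors was 53.0 ± 4.77 CPM per kilobase at day 0, 43.8 ± 5.52 at day 7, 42.0 ± 3.58 at day 14 (SD, n = 4 each) and 53.8 ± 11.4 at day 21 (SD, n = 3).

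**Figure D2:**
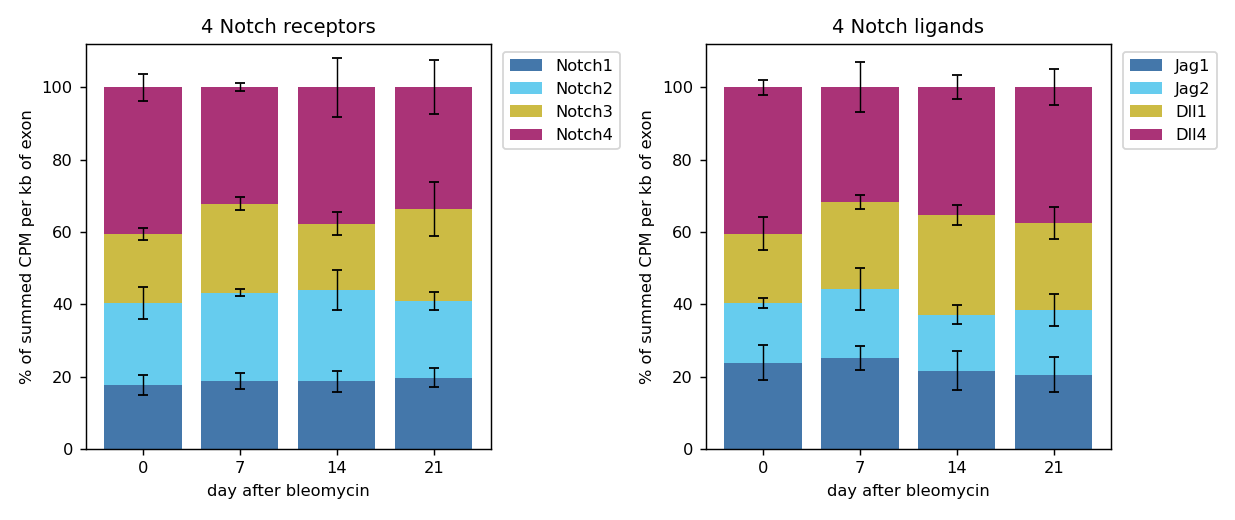
Share of each gene (stacked bars, mean over libraries, bars of 1 SD) in the summed CPM per kilobase of exon of 4 Notch receptors (left) and 4 Notch ligands (right) at each day after bleomycin, with day 0 as control. Notch4 and Dll4 hold the top share at day 0, 40.5% each, and less at day 7, 32.2% and 31.8%.

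Notch4 (chromosome 17, 34564268 to 34588503, plus strand, mm10) encodes a receptor found mainly on endothelial cells. It stood at 171, 159, 166 and 194 CPM in day 0 replicates 1 to 4 and at 99.2, 110.2, 118 and 125 CPM in those of day 7. Its later levels were 90.7, 149, 157 and 115 CPM (day 14) and 128, 224 and 98.7 CPM (day 21). Every day 7 and day 14 library lay below every day 0 library, while day 21 replicate 2 was the highest of all 15. Notch4 fell at day 7 by 0.61 on the log2 scale (SE 0.21, adjusted p = 0.0473), a fold change of 0.656. The log2 difference was -0.43 at day 14 (SE 0.21, adjusted p = 0.132) and -0.20 at day 21 (SE 0.23, adjusted p = 0.557), neither of which passed.

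The call for Notch4 was close to the threshold. It was lost in each of the 8 fits without 1 library of day 0 or day 7, with log2 differences of -0.67 to -0.57 and adjusted p-values of 0.0527 to 0.113. With the mitochondrial share as a covariate, its difference was -0.38 (adjusted p = 0.336). Among libraries with a share under 2.5% the difference was -0.56 (adjusted p = 0.0101), under the fold threshold. That set held 2 libraries of day 0 and 4 of day 7. Without day 21 replicate 2, the day 21 difference became -0.64 (adjusted p = 0.0227) and passed. The summed level of 10 endothelial markers ranged from 3773 to 4593 CPM at day 0, 2826 to 3477 at day 7, 2455 to 3801 at day 14 and 3475 to 4340 at day 21, with day 21 replicate 2 at the top of its day. Of these 10 markers, 4 were lower at day 7, 3 were lower at day 14, and 1 was lower and 1 higher at day 21, and none was at 0. Among all genes, 16.1%, 23.1% and 22.5% passed in either direction at these days. Of 5 arterial markers, 2 were lower at day 7, 2 lower and 2 higher at day 14 and 2 higher at day 21. Their part in the level of Notch4 was not tested, and in whole lung fewer cells of a type and less RNA per cell cannot be told apart.

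Notch1 and Notch2 did not pass in any comparison. Notch1 (chromosome 2, 26457903 to 26516663, minus strand), a receptor of many cell types including endothelium, stood at 120.5, 139, 103 and 173 CPM at day 0 and at 84.05, 129, 113 and 144 CPM at day 7. It stood at 106, 81.2, 131 and 129.9 CPM at day 14 and at 130.5, 213 and 116 CPM at day 21. The days overlapped, and day 21 replicate 2 was again the highest library. Its log2 differences from day 0 were -0.19, -0.26 and 0.20 at days 7, 14 and 21, with adjusted p-values of 0.573, 0.405 and 0.572. Without day 21 replicate 2 the last turned to -0.16. Notch2 (chromosome 3, 98013527 to 98150361, plus strand) ranged from 95.3 to 162 CPM at day 0, which spanned the 100.2 to 132 CPM of day 7, the 101 to 141 CPM of day 14 and the 109 to 131 CPM of day 21. Its log2 differences were -0.17, -0.20 and -0.11, with adjusted p-values of 0.444, 0.349 and 0.654.

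Of the ligands, Jag1 passed in the test over the 4 days and the other two did not. Jag1 (chromosome 2, 137081456 to 137116644, minus strand), a ligand of vessel walls and airways, stood at 70.3, 73.8, 56.2 and 77.2 CPM at day 0 and at 50.8, 50.1, 54.9 and 58.7 CPM at day 7. It stood at 60.1, 56.8, 55.5 and 52.8 CPM at day 14 and at 60.8, 58.9 and 45.4 CPM at day 21. The later libraries lay below 3 of the 4 day 0 libraries, and day 0 replicate 3 lay among them. The log2 difference was -0.37 at day 7 (SE 0.11, adjusted p = 0.0277), with a fold change of 0.773 that missed the fold threshold. At days 14 and 21 it was -0.30 and -0.33, with adjusted p-values of 0.054 and 0.0539. In a test of any difference among the 4 days, which has no fold threshold, 2 of the 10 members passed, beside 39.9% of all genes. They were Heyl (adjusted p = 0.00384) and Jag1 (adjusted p = 0.0478), and Jag1 no longer passed in 8 of the 15 fits without 1 library, those without day 0 replicate 1, 2 or 4, day 7 replicate 1, 2 or 3, or day 14 replicate 3 or 4.

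Jag2 (chromosome 12, 112907819 to 112929776, minus strand) and Dll1 (chromosome 17, 15367354 to 15376872, minus strand), are ligands of the Jagged and the Delta-like family. Jag2 ranged from 51.2 to 62.6 CPM at day 0, 36.5 to 66.6 at day 7, 33.3 to 62.5 at day 14 and 53.4 to 58.9 at day 21, and its log2 differences from day 0 were -0.25, -0.21 and -0.04 (adjusted p = 0.348, 0.419 and 0.911). Dll1 stood at 33.5, 28.6, 60.1 and 44.6 CPM at day 0, at 30.6 to 42.0 CPM at day 7, at 37.0, 82.2, 56.2 and 46.9 CPM at day 14 and at 40.8, 80.7 and 31.0 CPM at day 21. Single libraries, day 14 replicate 2 and day 21 replicate 2, held its top levels. Its log2 differences were -0.16, 0.41 and 0.29 (adjusted p = 0.735, 0.303 and 0.535). The antisense gene A930024N18Rik covers 20.6% of the exon bases of Dll1 and had at most 46 counts in a library. The kit does not mark strand, so that reads of the 2 genes cannot be told apart there.

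Lfng (chromosome 5, 140607320 to 140615545, plus strand) encodes a Fringe enzyme, which adds a sugar to Notch receptors and so tunes which ligands they answer. It stood at 63.0, 54.1, 52.4 and 52.6 CPM at day 0 and ranged from 47.7 to 66.9 CPM at day 7, 44.8 to 66.1 at day 14 and 54.6 to 74.4 at day 21. The days overlapped. The log2 differences were 0.07, -0.01 and 0.20 at days 7, 14 and 21 (adjusted p = 0.741, 0.978 and 0.358).

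Heyl (chromosome 4, 123233556 to 123249875, plus strand), a repressor of the Hey family expressed in smooth muscle cells and pericytes of vessels, had the highest log2 differences from day 0 of the 10. It stood at 44.7, 38.0, 52.9 and 53.9 CPM at day 0 and at 53.3, 65.97, 63.4 and 54.6 CPM at day 7. It stood at 96.7, 75.9, 57.6 and 60.5 CPM at day 14 and at 89.0, 105 and 76.8 CPM at day 21. All libraries of days 14 and 21 lay above all day 0 libraries, and those of day 21 above all of day 7, while days 14 and 21 overlapped. Heyl rose by 0.62 at day 14 on the log2 scale (SE 0.16, adjusted p = 0.00963), a fold change of 1.53, and by 0.93 at day 21 (SE 0.18, adjusted p = 0.00109), a fold change of 1.91. The difference at day 7 was 0.32 (adjusted p = 0.16).

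The rise at day 21 held in 16 of 17 alternatives, including all 7 fits without 1 library. The exception was glmTreat, which tests whether a fold change exceeds 1.5 (adjusted p = 0.0753). The rise at day 14 was lost without day 0 replicate 1 (0.56), day 0 replicate 2 (0.50), day 14 replicate 1 (0.43) or day 14 replicate 2 (0.57), where adjusted p-values of 0.032 to 0.049 went with fold changes under 1.5. Among libraries with a mitochondrial share over 3.5% the day 14 difference was 0.27 (adjusted p = 0.304). Without day 0 replicate 4 the differences were 0.66 at day 14 (adjusted p = 0.0151) and 0.97 at day 21 (adjusted p = 0.00256).

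The summed level of 8 markers of mural cells, the cells of vessel walls, was higher on each later day, while the single markers were mixed. The sum was 381.8 to 492.9 CPM at day 0, 523.4 to 580.2 at day 7, 639.3 to 795.9 at day 14 and 862.1 to 999.1 at day 21, with no overlap between days. Of the 8 markers, 1, 3 and 4 were higher at days 7, 14 and 21 and 1 was lower at each day, and none was at 0. Their median log2 differences were -0.20, 0.11 and 0.57, beside 0.01, 0.02 and 0.02 over all genes. Of 6 smooth muscle markers, 0, 2 and 3 were higher, with 1, 3 and 3 at an unadjusted p under 0.05 and 0, 2 and 3 by DESeq2. Among all genes, 16.1%, 23.1% and 22.5% passed in either direction at days 7, 14 and 21. At an unadjusted p under 0.05 the all-gene shares were 38.2%, 43.3% and 40.5%. The part of these cells in the level of Heyl was not tested.

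**Figure D3:**
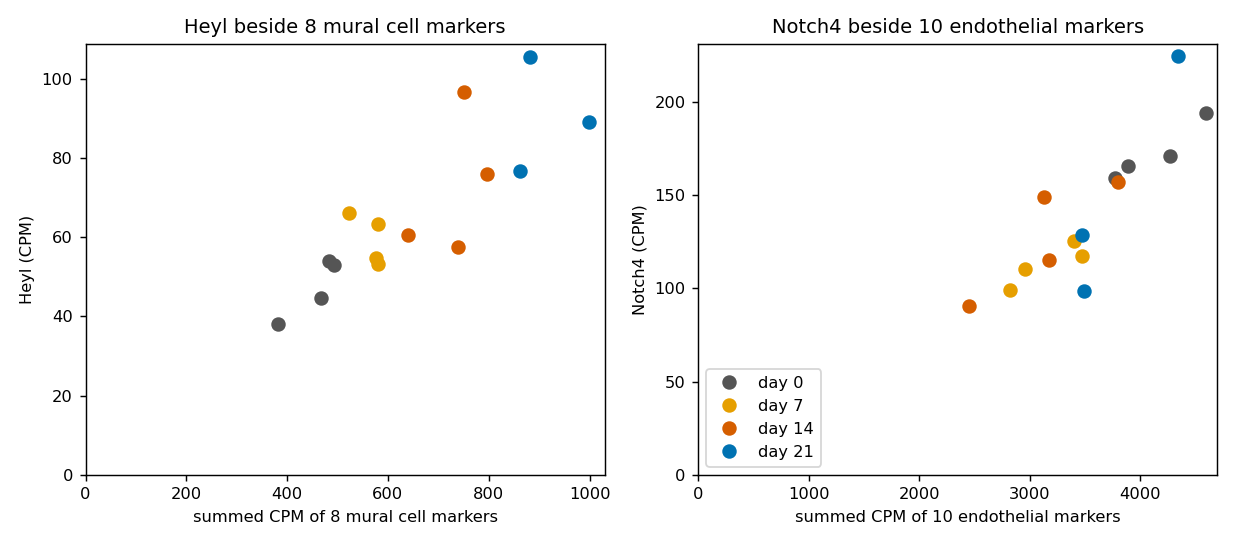
CPM of Heyl beside the summed CPM of 8 mural cell markers (left) and CPM of Notch4 beside the summed CPM of 10 endothelial markers (right) in the 15 libraries, colored by day, all axes linear from 0. Libraries of day 21 hold both the top mural sums, 862.1 to 999.1, and Heyl levels of 76.8 to 105, and day 14 replicate 1 has Heyl at 96.7 with a mural sum of 751.0. For Notch4, the lowest endothelial sum, 2455, and the lowest level, 90.7, are both of day 14 replicate 1, the 4 day 7 libraries hold sums of 2826 to 3477 and levels of 99.2 to 125, and day 21 replicate 3 has a lower level, 98.7, at a higher sum, 3494.

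Hes1 (chromosome 16, 30064384 to 30067796, plus strand), the repressor most widely used as a Notch readout, stood at 72.5, 63.6, 44.1 and 72.1 CPM at day 0 and at 62.6, 47.5, 45.8 and 45.2 CPM at day 7. It stood at 50.3, 72.01, 51.4 and 38.3 CPM at day 14 and at 43.4, 49.3 and 35.4 CPM at day 21. The days overlapped, with day 0 replicate 3 low among the day 0 libraries and day 14 replicate 2 within the range of the others of day 0. The log2 differences were -0.33 and -0.25 at days 7 and 14 (adjusted p = 0.223 and 0.337). The difference at day 21, -0.56 (SE 0.21, adjusted p = 0.0536), narrowly missed the threshold, and passed in 8 of 17 alternatives, among them DESeq2 (-0.59, adjusted p = 0.033). These 8 include the fits without day 0 replicate 3 (-0.73, adjusted p = 0.0142) and day 21 replicate 2 (-0.72, adjusted p = 0.0411).

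Nrarp (chromosome 2, 25180758 to 25183339, plus strand), a target whose product dampens the signal, was the least abundant member, with 32 to 89 counts per library. It stood at 3.17, 3.69, 5.21 and 4.74 CPM at day 0, at 2.27, 3.18, 2.80 and 2.62 CPM at day 7, at 3.19, 4.21, 3.38 and 1.93 CPM at day 14 and at 3.65, 5.07 and 2.71 CPM at day 21. The days overlapped by a small margin between day 0 and day 7. Its log2 differences were -0.63, -0.40 and -0.14 (adjusted p = 0.0963, 0.264 and 0.748), and counting error adds to the spread at this depth. The antisense gene model Gm38287, for which no count was read here, covers 79.4% of its exon bases, so that the level given for Nrarp may hold reads of either transcript. The gene models 0610009E02Rik and Gm13568 on the other strand cover 7.50% and 2.91% of the exon bases of Notch1, and Gm42820 covers 5.02% of those of Notch2.

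**Figure D4:**
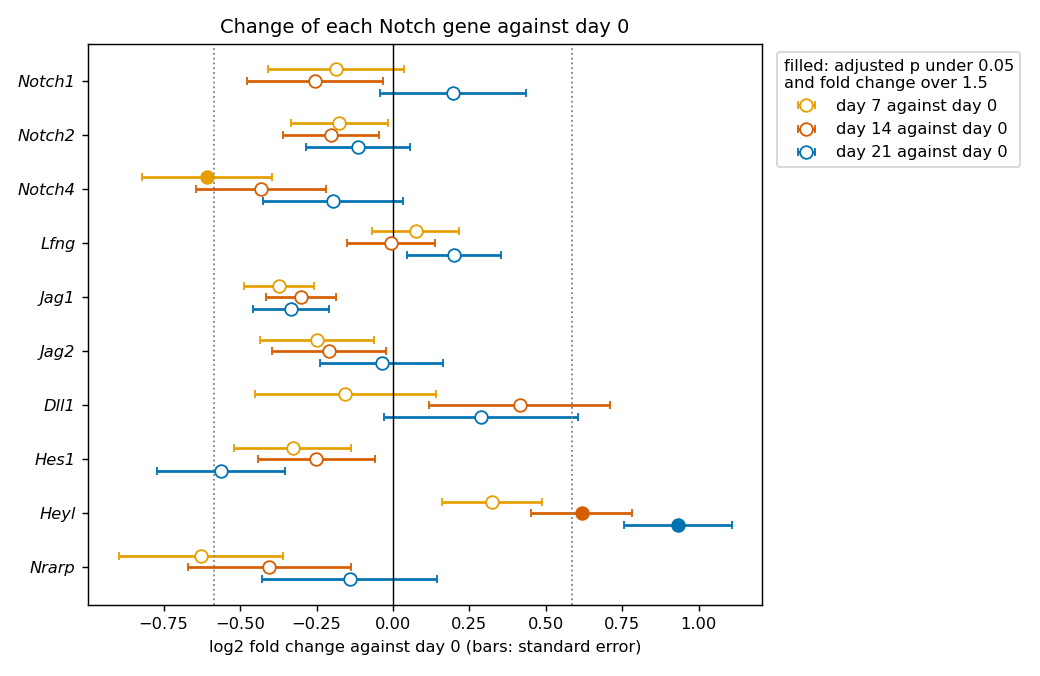
Log2 fold change against day 0 (horizontal axis, points with bars of 1 standard error) of the 10 members at days 7, 14 and 21, with dotted lines at a fold change of 1.5 in either direction and filled points for differences that passed. Notch4 at day 7 (-0.61) and Heyl at days 14 and 21 (0.62 and 0.93) are filled.

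The members that did not overlap between days were few. Notch4 was apart from day 0 at day 7, Notch4 and Heyl at day 14, and Heyl at day 21, which was 1, 2 and 1 of 10, beside 30.8%, 31.1% and 35.5% of all genes. Between later days, Heyl was higher at day 21 than at day 7 (log2 difference 0.61, SE 0.18, adjusted p = 0.0352), the only 1 of 10 to pass, beside 9.54% of all genes, with 28.0% of all genes not overlapping between these days. That call was lost in 9 of 17 alternatives, among them the fits without day 7 replicate 1 (0.55), 3 (0.64) or 4 (0.57) and day 21 replicate 1 (0.60) or 2 (0.46). Neighboring later days of Heyl did not pass, with adjusted p-values of 0.282 between days 7 and 14 and 0.576 between days 14 and 21. No member passed in edgeR between days 7 and 14 (6.0% of all genes) or between days 14 and 21 (0.0%), and none did so by DESeq2 or limma voom. At an unadjusted p under 0.05 there were 0 members in both, beside 25.0% and 9.82% of all genes.

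By level per kilobase at day 0 the order of the members was Hes1 (31.0 CPM), Lfng (22.2), Notch4 (21.4), Notch2 (12.1), Jag1 (11.9), Dll1 (9.88), Notch1 (9.39), Heyl (9.26), Jag2 (8.33) and Nrarp (1.63). The ranges of neighbors in this order overlapped, except between Notch4 (19.7 to 24.1) and Notch2 (8.84 to 15.03) and between Jag2 (7.35 to 8.995) and Nrarp (1.23 to 2.02). At day 21 Heyl stood at 17.7 CPM per kilobase (15.01 to 20.6), near Hes1 at 20.9 (17.4 to 24.2). The order depends on the annotated isoforms, since the lengths take in all annotated exons of a gene. Notch1, for one, is annotated from 26516663, upstream of its RefSeq start at 26503822.

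The genes whose pattern over the 15 libraries was most like that of Heyl were Ppfibp1, Alkbh3 and Chpf2, with mean absolute differences in centered log2 CPM of 0.122, 0.123 and 0.126, against a mean deviation of 0.32 of Heyl itself. Their log2 differences at day 21 were 0.77, 0.79 and 1.18. Those most like Notch4 were Sox13 (0.121), Snx21 (0.141) and Osbpl2 (0.142), with log2 differences at day 7 of -0.62, -0.58 and -0.51. Likeness in these libraries is a description of levels alone.

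The rest of the pathway was read from a list of 40 further genes, of which 35 were tested. Dll3, Dlk1, Dlk2, Hes5 and Hes7 had at most 18 counts in a library and were not. At day 7, 3 were higher and 4 lower, at day 14, 3 higher and 3 lower, and at day 21, 4 higher and 2 lower. These were 7, 6 and 6 of 35, beside 16.1%, 23.1% and 22.5% of all genes. At an unadjusted p under 0.05 there were 18, 19 and 15 of 35, beside 38.2%, 43.3% and 40.5%, and 14, 12 and 13 did not overlap with day 0, beside 30.8%, 31.1% and 35.5%. Their medians were -0.05, -0.06 and 0.01 on the log2 scale. Genes that the list counts as called lay in several steps of the pathway and in both directions.

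Among ligands and targets, 2 genes were lower. Hey1 (chromosome 3, 8663359 to 8667256, minus strand), a Hey repressor of endothelial cells, stood at 97.1, 100.5, 87.5 and 100.4 CPM at day 0 and at 47.9, 38.2, 53.0 and 51.5 CPM at day 7. It stood at 46.0, 72.6, 45.1 and 46.1 CPM at day 14 and at 78.1, 84.3 and 62.4 CPM at day 21. Every later library lay below every day 0 library. Hey1 fell by 1.02 at day 7 (SE 0.16, adjusted p = 0.000437) and by 0.88 at day 14 (SE 0.16, adjusted p = 0.000606), and held in all 8 fits without 1 library at each of these days. The day 14 call was lost with glmTreat (adjusted p = 0.0873). At day 21 its log2 difference was -0.36 (adjusted p = 0.117). It was higher at day 21 than at day 7 by 0.65 (adjusted p = 0.0207).

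Dll4, a Delta-like ligand of endothelial cells, stood at 74.2, 64.0, 88.8 and 90.5 CPM at day 0 and at 43.8, 56.4, 53.5 and 28.6 CPM at day 7, without overlap. It fell at day 7 by 0.80 (SE 0.28, adjusted p = 0.0446), and this was lost in 7 of 8 fits without 1 library, all but that without day 0 replicate 2, with differences of -0.92 to -0.63. With the covariate of mitochondrial share it was -0.54 (adjusted p = 0.315), and among libraries under 2.5% it was -0.62 (adjusted p = 0.0983). The antisense gene model Gm14207, with up to 87 counts, covers 5.56% of its exon bases. At days 14 and 21 it ranged from 47.9 to 97.5 and from 51.7 to 109 CPM. Of the summed level per kilobase of Jag1, Jag2, Dll1 and Dll4, Dll4 held 40.5% ± 2.01 at day 0 and 31.8% ± 6.90 at day 7 (SD, n = 4 each), and Dll1 19.2% ± 4.50 and 24.0% ± 1.99. The ranges of Dll4, 37.5% to 41.7% and 21.6% to 37.0%, did not overlap, and those of Dll1 did.

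Of 9 cleavage genes, 1, 2 and 2 passed at days 7, 14 and 21, all of them higher, beside 16.1%, 23.1% and 22.5% of all genes. DESeq2 called 0, 2 and 2. At an unadjusted p under 0.05 there were 6, 6 and 4 of 9, beside 38.2%, 43.3% and 40.5% of all genes, and 5, 4 and 3 of 9 did not overlap with day 0, beside 30.8%, 31.1% and 35.5%. Adam10, the protease that makes the first cut after ligand binding, had means of 145, 210.0, 222 and 238 CPM at days 0, 7, 14 and 21 and rose by 0.61 at day 14 (adjusted p = 0.00229) and by 0.71 at day 21 (adjusted p = 0.00146). The day 14 fold change dropped under 1.5 without day 0 replicate 3 (0.49) or 4 (0.57) or day 14 replicate 1 (0.53) and with the filter of a mean of at least 1 CPM (0.58), and the day 21 one without day 0 replicate 3 (0.58) or day 21 replicate 3 (0.56). Furin, which cuts the receptor on its way to the surface, had means of 158, 214, 252 and 271 CPM and rose by 0.67 at day 14 (adjusted p = 0.00698) and by 0.78 at day 21 (adjusted p = 0.0047). Its day 14 call was lost without day 0 replicate 3 (0.54) or day 14 replicate 1 (0.51) and among libraries with a mitochondrial share over 3.5% (0.68, adjusted p = 0.0602). The sheddase Adam17 rose by 0.59 at day 7 (adjusted p = 0.00709), a fold change of 1.503 at the edge of the threshold, and was lost without day 0 replicate 3 (0.49) or 4 (0.54) or day 7 replicate 1 (0.58), 2 (0.58) or 4 (0.55). Total-count scaling, RLE factors, DESeq2, both other filters, the replicate block, the fit of the 2 days alone and the libraries with a mitochondrial share under 2.5% (0.42) also put it under 1.5-fold, and with the covariate of mitochondrial share it was 0.45 (adjusted p = 0.083). The gene Iah1 on the other strand, with up to 885 counts, covers 4.35% of its exon bases.

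Of 11 ubiquitin ligase and endocytosis genes, 2 were higher and 2 lower at day 7, 1 higher and 2 lower at day 14, and 2 higher and 2 lower at day 21. The all-gene shares in these comparisons were 16.1%, 23.1% and 22.5%. Dtx4 and Dtx1, of the Deltex family of ubiquitin ligases, moved in opposite directions. Dtx4 stood at 15.2 to 34.2 CPM at day 0, 44.5 to 73.8 at day 7, 40.2 to 60.6 at day 14 and 52.1 to 74.8 at day 21, so that all later libraries lay above day 0. It rose by 1.07, 0.98 and 1.22 (adjusted p = 0.0052, 0.0057 and 0.00221) and held in all fits without 1 library. The day 7 call was lost with the covariate of mitochondrial share (0.80, adjusted p = 0.056), and the day 7 and day 14 calls with glmTreat (adjusted p = 0.12 and 0.126). Dtx1 stood at 5.80 to 8.74 CPM at day 0, 4.91 to 8.56 at day 7, 1.34 to 2.69 at day 14 and 2.56 to 5.69 at day 21. It fell by 1.79 at day 14 (SE 0.28, adjusted p = 0.000226) and by 0.92 at day 21 (SE 0.29, adjusted p = 0.0279), the latter lost without day 0 replicate 1 (-0.88) or day 21 replicate 2 (-0.72) or 3 (-0.91).

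Mib2, a ligase that acts on Notch ligands, had means of 73.1, 44.1, 43.6 and 38.9 CPM and fell by 0.73, 0.75 and 0.91 at days 7, 14 and 21 (adjusted p = 0.0206, 0.0133 and 0.00802). Its day 7 call was lost without day 0 replicate 4 (-0.70) or day 7 replicate 1 (-0.69) or 2 (-0.67), and its day 14 call without day 14 replicate 1 (-0.57). With the covariate of mitochondrial share its day 7 difference was -0.43 (adjusted p = 0.242), and among libraries under 2.5% it was -0.58, under the fold threshold. Neurl1a, another ligase of ligands, rose by 0.77 at day 7 (adjusted p = 0.0183), lost without day 0 replicate 4 (0.61) or day 7 replicate 4 (0.65), with the covariate (0.55, adjusted p = 0.166) and among libraries under 2.5% (0.57, adjusted p = 0.0692). Dtx3 fell by 0.73 at day 7 (adjusted p = 0.0168), lost without day 0 replicate 3 (-0.59) or 4 (-0.67) or day 7 replicate 2 (-0.66). With the covariate its difference was -0.22 (adjusted p = 0.244), and among libraries under 2.5% it was -0.32 (adjusted p = 0.0892). Numbl, related to the Notch inhibitor Numb, rose by 0.64 at day 21 (adjusted p = 0.0408). The call was lost without day 0 replicate 1 (0.50), 2 (0.55) or 4 (0.66) or day 21 replicate 1 (0.39) or 2 (0.61), with a replicate block (0.58, adjusted p = 0.0918) and in a fit of the 2 days alone (0.61, adjusted p = 0.0545). Of all calls of these further pathway genes against day 0, glmTreat kept 1 a day, Hey1 at day 7, Dtx1 at day 14 and Dtx4 at day 21.

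**Figure D5:**
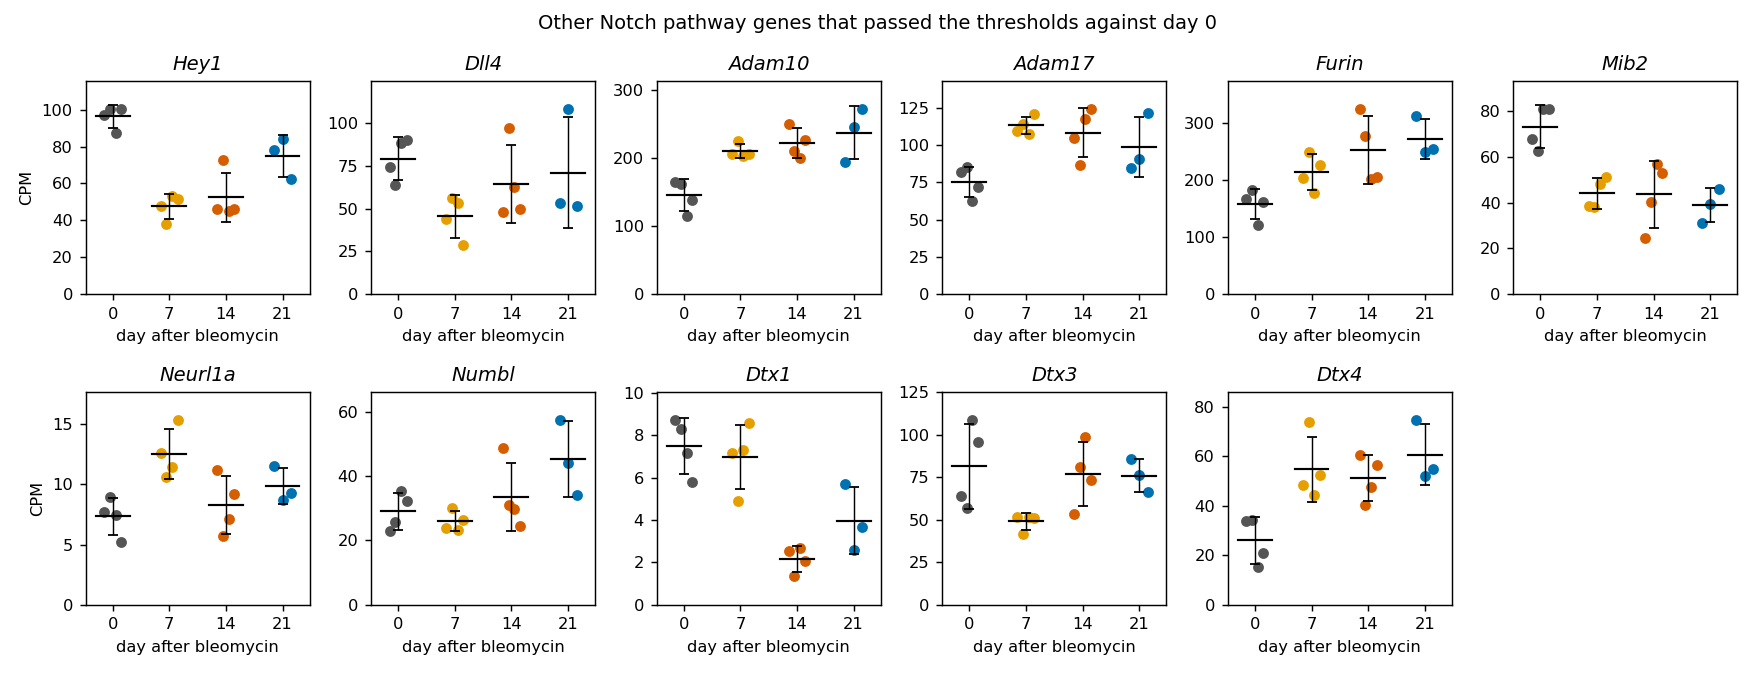
CPM (vertical axes, linear from 0) of the 11 further pathway genes that passed against day 0 on at least 1 day, in each of the 15 libraries (points), with the group mean and bars of 1 SD. Hey1 and Mib2 lie below day 0 in every later library, and Dtx4 and Adam10 lie above it.

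Of 6 genes of the nuclear complex, 0 passed at any day in edgeR or DESeq2, with 1, 4 and 1 at an unadjusted p under 0.05 at days 7, 14 and 21, beside 38.2%, 43.3% and 40.5% of all genes. Rbpj, whose product binds the DNA, had a fold change of 1.46 at day 7 (adjusted p = 0.00528), under the fold threshold. Of 4 enzymes that place sugars on the receptor, 0 passed in edgeR or DESeq2 against day 0, with 2, 1 and 2 at an unadjusted p under 0.05, beside the same shares. Notch3, the receptor of vascular smooth muscle and pericytes, had means of 82.0, 87.0, 62.8 and 107 CPM, and its log2 differences from day 0 were 0.09, -0.39 and 0.38 (adjusted p = 0.723, 0.0683 and 0.0959). Over the 4 days, 14 of the 35 further pathway genes tested passed, beside 39.9% of all genes. Notch3 (adjusted p = 0.0126) and Rbpj (adjusted p = 0.0131) were among them. At day 14 all 4 libraries of Notch3 lay below those of days 0, 7 and 21. The log2 difference of day 14 from day 7 was -0.47 (adjusted p = 0.0774). That of day 21 from day 14 was 0.77, which DESeq2 called and edgeR did not (adjusted p = 0.237).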

How the data were processed

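Per the labels and the study's methods, reads were trimmed (TrimGalore) and mapped to mm10 (HISAT2 2.1.0) by the authors, who dropped multi-mapped reads and deposited raw counts per Ensembl gene from HTSeq 0.6.0, with no normalization. The kit (NEBNext Ultra) does not mark strand, and the annotation release and strand setting of the counting were not given in the sources used here. Symbols and exon lengths came from GENCODE M21, which matched 33267 of 33340 identifiers, and promoters from RefSeq. Exon lengths took in every annotated exon of a gene, with overlaps counted once. Genes were kept by filterByExpr (17457 genes). edgeR 4.0.16 in R 4.3.3 fitted TMM-scaled counts with day as the only term, over all 15 libraries, by the quasi-likelihood test. The fold threshold of 1.5 and the adjusted p threshold of 0.05 are those of the study. The common biological coefficient of variation was 22.8%. The fit was tested on simulated data. Depth was similar between libraries (15652008 to 18020661 counts).

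The members and the pathway and marker lists were chosen with earlier results of these data known. The further genes named were all listed pathway genes called against day 0, the 3 genes nearest to Heyl and to Notch4 (the members with the highest and the lowest log2 difference among calls), with predicted and immune receptor genes left out, and, chosen after their values were seen, Notch3 and Rbpj. Alternatives were DESeq2 1.42.0, limma 3.58.1 voom, total-count scaling, RLE factors, 2 other filters, no fold threshold, glmTreat, a replicate block, the mitochondrial share as a covariate, libraries under 2.5% or over 3.5% of it, the 2 days alone, and leaving out each library. Replicates are separate samples in the labels, which name no animals. The p-values weigh a day difference against the spread between these samples, and the labels do not show that each is a separate animal. The series description gives fewer replicates than the titles, which were used.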

Additional observations from a re-analysis of the deposited data

Results flagged for a closer look

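In groups of 4 libraries, 5 of 63 groups (21 genes at days 0, 7 and 14) had 1 library far from the other 3 by Dixon's criterion, which flags about 5% of groups by chance. Day 14 replicate 1 held 141 CPM of Notch2, while the other libraries of that day held 101 to 108 CPM. Lfng was high in day 0 replicate 1 (63.0 CPM, the rest 52.4 to 54.1 CPM). Hes1 was high in day 7 replicate 1 (62.6 CPM, the rest 45.2 to 47.5 CPM). Dtx3 was low in day 7 replicate 2 (41.9 CPM, the rest 50.9 to 51.8 CPM). Hey1 was high in day 14 replicate 2 (72.6 CPM, the rest 45.1 to 46.1 CPM).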

How the results depend on the processing

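Against day 0 at day 7, the count of members (1) was 2 without the fold threshold, and 0 with glmTreat, with the covariate of mitochondrial share, among libraries with a share under 2.5% and in every fit without 1 library (0 to 0). At day 14 (1) it was 0 with glmTreat and among libraries with a share over 3.5%, and 0 to 1 without 1 library. At day 21 (1) it was 2 with RLE factors, DESeq2, either other filter or the 2 days alone, 0 with glmTreat, and 1 to 3 without 1 library. Between days 21 and 7 (1) it was 0 with no filter, glmTreat or the covariate, and 0 to 1 without 1 library. Over the 4 days (2) it was 1 with limma voom, no filter or the covariate, and 1 to 3 without 1 library. Of the other pathway genes, the 7 at day 7 became 1 with glmTreat, 1 with the covariate, 3 among libraries under 2.5% and 2 to 8 without 1 library. The 6 at day 14 became 11 without the fold threshold and 1 with glmTreat, and the 6 at day 21 became 10 and 1. The causes were not tested, except that glmTreat asks for more than the fold threshold does.

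The deviations of same-numbered libraries had a median correlation of 0.04 (8 of 21 pairs over 0.1, highest 0.397), against -0.03 for other pairs (13 of 63 over 0.1, highest 0.258), and 7 of 15 libraries correlated best with their own number. These values do not settle whether the numbers pair samples, and the main fit kept day as its only term. With the replicate block the count of members was 2 at day 21 (Heyl and Hes1), 0 between days 21 and 7, 1 over the 4 days, and the same as without it at days 7 and 14. Of the other pathway genes, Adam17 at day 7 (0.58) and Numbl at day 21 (0.58) no longer passed.

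Differences that changed sign (15 of 951 refits) passed in neither fit, with adjusted p-values of 0.26 or more. With the covariate these were Jag2 (0.011), Dll1 (0.35) and Lfng (-0.026) at day 7 and Lfng (0.0099) at day 14. Among libraries with a share under 2.5% they were Dll1 (0.25) and Lfng (-0.019) at day 7, and with the block Jag2 (0.0355) at day 21. Without 1 library, the log2 difference ranged from -0.33 to 0.048 for Dll1 and from -0.017 to 0.16 for Lfng at day 7, from -0.13 to 0.082 for Lfng at day 14, and from -0.16 to 0.32 for Notch1, -0.26 to 0.50 for Dll1 and -0.44 to 0.012 for Nrarp at day 21.

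The number of all genes that passed at day 7, 2818, was 4365 without the fold threshold, 703 with glmTreat and 1269 with the covariate. With glmTreat it was 1755 in place of 4040 at day 14 and 1754 in place of 3924 at day 21. No scaling moved the median over all genes by more than 0.1 on the log2 scale. With 3 or 4 libraries a day, differences near 1.5-fold passed or failed with the choice of libraries, and Nrarp is limited by its low counts.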
